A study of Mus musculus with 28 samples.

Results

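Promoter capture Hi-C records which stretches of a chromosome lie in contact with gene promoters, and the fragments described here are those that were in contact with many promoters at once. They are HindIII restriction fragments that never served as a captured promoter (bait) in any of the 4 deposited contact lists and that were paired with 5 or more different baits of their own chromosome in at least one list. Of 107928 such non-bait fragments paired with a bait on their chromosome, 6051 (5.61%) met this count and are called shared fragments below. The other 101877 had 1 to 4 baits. The fragments were thus chosen by the measured number of baits, so their bait counts are given as a description and carry no test.

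The contacts came from C10 cells, one mouse pre-B cell line derived from HAFTL cells that carries a CEBPalpha-ER transgene, that is, the transcription factor C/EBPα fused to the estrogen receptor. Every group carried the transgene. Cells were uninduced (0h) or had been treated for 1h, 12h or 48h with 100 nM of β-estradiol together with 10 nM IL-3 and CSF-1, under which they trans-differentiate toward macrophages. Promoter capture Hi-C had 2 replicates per time point, merged by the authors into 1 list each, so a bait count has no replicate error, and RNA-seq had 3 biological replicates per time point (12 libraries). Whether the 3 came from separate cultures was not stated, so p-values measure the spread between these libraries.

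In nuclei, a promoter can be brought near distant DNA by looping, and regions contacted by promoters are called promoter-interacting regions (PIRs). One such region can meet the promoters of several neighbouring genes, as enhancers of gene clusters and boundary regions bound by the architectural protein CTCF are known to do. C/EBPα, acting with the factor PU.1, is known to switch B cell precursors to the macrophage programme, whereas EBF1 is a B lineage factor.

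The lists held 108144 to 123146 pairs of a bait with a non-bait fragment on the same chromosome. All 127024 fragments named in them were fragments of a HindIII digest of GRCm38. The lineage markers followed the labels. The summed TPM (transcript abundance scaled to the same total in each library) of 30 Pre-B lineage genes ranged from 463 to 525 in the 0h libraries and from 52.6 to 70.7 at 48h, and that of 41 macrophage lineage genes from 40.8 to 47.1 and from 1715 to 2017. Markers of T cells, fibroblasts, erythroid cells and granulocytes summed to at most 0.12 TPM in any library. In every library a few genes of very high TPM took most of the total, and 58343 to 131784 TPM were left outside the 20 most abundant genes, so the main expression counts below are also given after median-of-ratios scaling.

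The stretches below are from shared fragments that the results turn on. They are written 5′ to 3′ from GRCm38 (mm10), on the plus strand unless the line says minus, and capitals mark a motif match. The first and the last are the centres of the fragment with the most baits and of the shared fragment at the baits of Mmp8 and Mmp12; neither fragment held a match to any motif searched. The others show matches to a consensus core of CTCF binding (the CTCF-type motif, 12 bases of which 8 are fixed) or to the C/EBP-type motif TTGCGNAA, where N is any base.
Usf2 intron fragment, chr7:30951548-30951787: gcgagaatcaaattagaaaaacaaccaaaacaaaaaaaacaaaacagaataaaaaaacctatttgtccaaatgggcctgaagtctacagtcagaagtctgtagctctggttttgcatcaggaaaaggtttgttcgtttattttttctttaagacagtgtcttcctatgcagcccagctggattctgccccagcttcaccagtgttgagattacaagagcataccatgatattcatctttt
Fragment near the Ifitm genes, chr7:140910221-140910340, minus, CTCF-type: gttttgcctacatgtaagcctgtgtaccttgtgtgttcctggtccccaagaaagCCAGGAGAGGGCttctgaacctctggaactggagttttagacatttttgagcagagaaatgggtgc
The same fragment, chr7:140911007-140911126, CTCF-type in a masked repeat: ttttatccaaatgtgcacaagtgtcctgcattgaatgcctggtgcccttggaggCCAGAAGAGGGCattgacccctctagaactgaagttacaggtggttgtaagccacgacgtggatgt
Intergenic fragment of chromosome 10, chr10:79984611-79984730, CTCF-type in a masked repeat: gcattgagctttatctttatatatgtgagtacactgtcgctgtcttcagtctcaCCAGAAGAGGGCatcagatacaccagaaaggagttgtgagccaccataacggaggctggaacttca
Skap1 intron fragment, chr11:96534690-96534809, CTCF-type in a masked repeat: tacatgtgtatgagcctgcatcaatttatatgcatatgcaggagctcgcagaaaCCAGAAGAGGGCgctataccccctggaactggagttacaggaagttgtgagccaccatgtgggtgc
Fragment at the bait of Cebpb, chr2:167897499-167897618, minus, CTCF-type: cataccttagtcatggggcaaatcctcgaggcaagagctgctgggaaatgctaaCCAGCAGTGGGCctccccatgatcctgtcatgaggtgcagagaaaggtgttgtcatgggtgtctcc
Fragment at the bait of Ccl2, chr11:82174910-82175029, minus, CTCF-type: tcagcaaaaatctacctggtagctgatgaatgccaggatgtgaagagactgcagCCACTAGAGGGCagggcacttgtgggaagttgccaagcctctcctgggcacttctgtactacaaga
Fragment of the Mmp locus, chr9:7304272-7304391, CTCF-type: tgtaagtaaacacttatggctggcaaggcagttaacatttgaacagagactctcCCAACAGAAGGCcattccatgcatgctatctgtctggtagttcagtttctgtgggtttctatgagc
Another fragment of the Mmp locus, chr9:7580432-7580547, minus, C/EBP-type: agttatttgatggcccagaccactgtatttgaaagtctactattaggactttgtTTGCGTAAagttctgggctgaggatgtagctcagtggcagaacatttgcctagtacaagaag
Fragment between Mmp27 and Mmp20, chr9:7594774-7595013: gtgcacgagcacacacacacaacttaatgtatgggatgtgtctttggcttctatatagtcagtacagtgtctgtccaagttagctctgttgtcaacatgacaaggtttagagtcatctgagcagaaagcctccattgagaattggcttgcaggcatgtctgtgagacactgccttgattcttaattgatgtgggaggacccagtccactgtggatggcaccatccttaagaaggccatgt

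Most shared fragments were just above the threshold. A total of 2631 had at most 5 baits in any list, 1347 had 6, 807 had 7, and 555 had 10 or more. The fragments just inside the threshold, with 5 baits, averaged 3.44, 3.54, 2.99 and 3.25 baits at 0h, 1h, 12h and 48h, and the 5186 fragments just outside it, with 4, averaged 2.65, 2.65, 2.37 and 2.65. The bait number therefore ran on across the threshold with no gap.

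Fewer fragments held 5 or more baits late than early. Over the time course (0h, 1h, 12h, 48h) there were 3306, 3485, 2150 and 2597. The 48h list was the longest (123146 pairs), and the 12h list, with the fewest such fragments, the shortest (108144). As a share of the non-bait fragments in each list the counts were 5.25%, 5.76%, 3.31% and 3.59%. The part of sequencing depth in these counts was not tested. Fragments with 10 or more baits numbered 320, 377, 128 and 121. The pairs held by shared fragments made up 25.2%, 26.8%, 21.9% and 19.8% of each list. Neighbouring baits can report the same contact, and counting baits within 10 kb of each other as 1 left 1837, 2000, 977 and 1265 fragments with 5 or more, in the same order of time points.

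**Figure D1:**
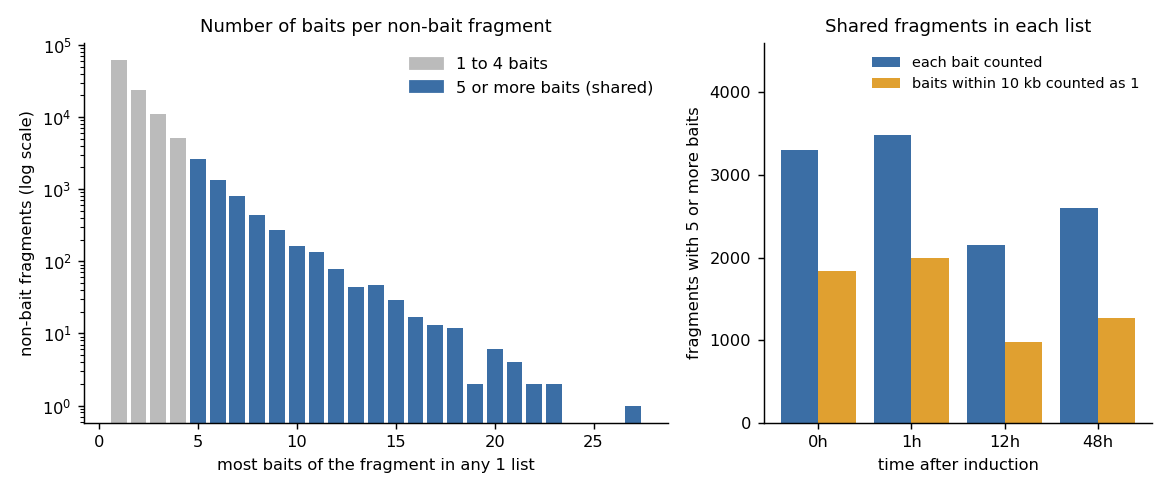
Left, the number of non-bait fragments (log scale) by the most baits each had in any 1 list, with the 6051 shared fragments in blue. Right, the fragments with 5 or more baits in each list, with each bait counted (blue) or with baits within 10 kb counted as 1 (orange). Both counts were lowest at 12h (2150 and 977), which was also the shortest list.

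Few fragments held 5 or more baits throughout. Of the shared fragments, 3019 (49.9%) reached 5 baits in 1 list only, 1398 in 2, 813 in 3 and 821 (13.6%) in all 4. The commonest patterns were 1h alone (1042 fragments), 0h alone (938), all 4 lists (821) and 48h alone (734). Between 162 (1h) and 317 (48h) shared fragments had no bait in a given list.

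The contacts of shared fragments were found in all lists more often than those of other fragments. Shared fragments formed 46315 distinct pairs with baits, of which 11504 (24.8%) were in all 4 lists, compared with 27036 of 185406 (14.6%) for other non-bait fragments. The 1h, 12h and 48h lists held 68.5%, 57.1% and 58.1% of their 0h pairs. For other fragments these shares were 51.6%, 49.8% and 54.8%. At 0h the median CHiCAGO score, the strength of a contact call, was 7.31 in pairs of shared fragments and 6.58 in the other pairs. Their median distances were 171 kb and 199 kb. The shares were not adjusted for these differences, and the fragments were chosen by their pairs, so the shares are a description.

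Shared fragments lay where promoters are dense. A shared fragment had a median of 22 baits within 500 kb (quartiles 14 and 31), and another non-bait fragment a median of 10 (6 and 17). The baits of a shared fragment lay on both sides of it in 57.8% of cases and spanned a median of 371 kb (quartiles 245 and 548 kb). The median distance of its pairs was 171 kb at 0h and 164 kb at 48h. Chromosome 7 held 739 shared fragments, 10.3% of its non-bait fragments, and chromosome 11 held 628 (8.13%), whereas chromosome 13 held 129 (2.67%) and chromosome X 92 (2.92%).

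They also lay in groups. Joined across gaps of up to 100 kb, the shared fragments formed 1112 runs, and 4616 fragments (76.3%) were in runs of 5 or more. The run with the most fragments, chr7:30233610-31182608, held 117 fragments that were paired with 52 baits. The next, chr10:33935453-34416707, held 90 fragments paired with 14 baits. A run in a gene-dense stretch can thus share baits among many fragments, and its fragments are not independent of each other.

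By annotation, 1139 shared fragments (18.8%) held an annotated transcription start site although they were not baits, 1960 (32.4%) another exon, 1382 (22.8%) only intron and 1570 (25.9%) were intergenic. In the other non-bait fragments the shares were 11.9%, 26.2%, 31.7% and 30.2%. The share with a start site was 10.9% in fragments with 1 bait and 22.0% in those with 10 or more. Median fragment length was 2781 bases in shared fragments and 2539 in the others, and median GC content 45.3% and 43.5%.

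The CTCF-type motif, searched on both strands in the central 1000 bases of each fragment of at least that length, matched 652 of 5127 windows of shared fragments (12.7%), 8.76% of windows of other non-bait fragments and 5.07% of the windows of all HindIII fragments. Its share went from 7.93% in fragments with 1 bait to 13.4% in those with 10 or more. Many matches were in soft-masked repeats, as in 3 of the stretches shown above. Counting only matches outside them gave 4.93%, 3.24% and 2.04%, and 3.08% to 6.30% from 1 bait to 10 or more. Bait density moved with this share. Within fragments with 10 to 19 baits in 500 kb, unmasked matches were in 4.15% of shared and 3.40% of other windows, and within those with 20 to 29 in 5.75% and 3.75%. Any match was in 9.05% and 6.71% at 1 to 9 baits and in 10.9% and 9.51% at 10 to 19. It was in 14.2% and 11.7% at 20 to 29, and in 14.3% and 13.5% at 30 or more. At a GC content of 45% to 50% any match was in 14.0% and 10.3%, and at 50% or more in 12.1% and 10.4%. The C/EBP-type motif was in 1.05% of windows of shared and 0.88% of other fragments, the PU.1-type motif GAGGAAGT in 7.12% and 6.43%, and an EBF1-type palindrome in 2.52% and 2.18%. For these 3 the shares over all HindIII fragments were 0.88%, 5.80% and 1.56%. A match is a run of letters and not a bound site. None of the 4 motifs contains another.

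**Figure D2:**
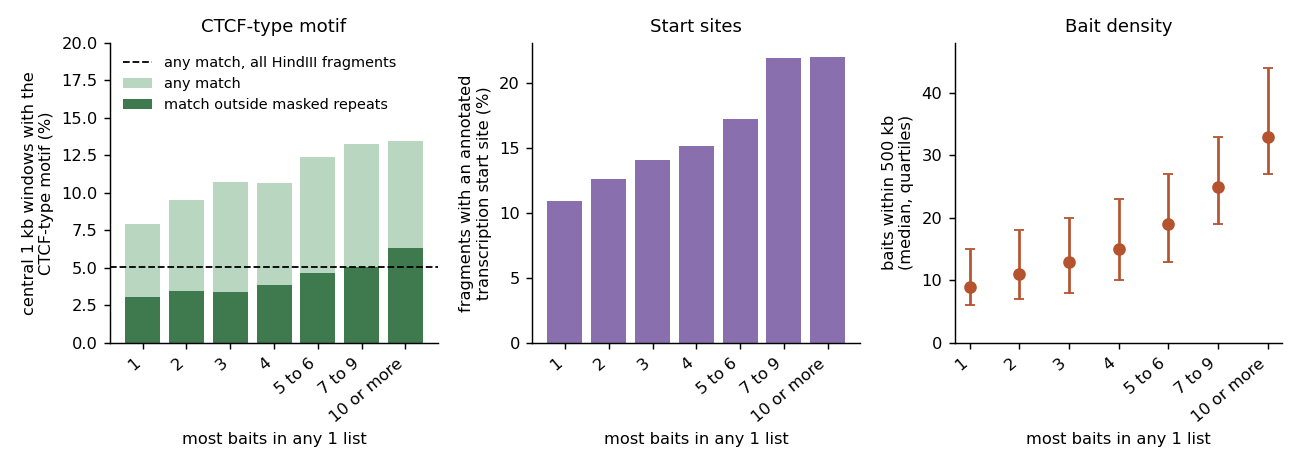
Features of non-bait fragments by the most baits in any 1 list. Left, the percent of central 1 kb windows with the CTCF-type motif (pale, any match; dark, matches outside masked repeats; dashed line, any match in all HindIII fragments, 5.07%). Middle, the percent with an annotated transcription start site. Right, the baits within 500 kb (point, median; bars, quartiles). All 3 were highest in fragments with 10 or more baits. The grouping is by bait number, so part of the rise in the right panel follows from it.

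The fragment with the most baits, chr7:30949718-30953617, lay in an intron of Usf2, which encodes a ubiquitous helix-loop-helix factor. It was paired with 27, 25, 16 and 13 baits over the time course, and 10 of its 31 baits were in all 4 lists. Counting baits within 10 kb as 1, its highest number was 19. Over all tested genes at baits of shared fragments, 11.1% were higher and 29.8% lower at 48h. Among the 21 tested genes at the baits of this fragment, 2 were higher and 7 lower. One of the lower genes was Cd22, a B cell surface receptor, whose bait was listed at 0h and 1h. One of the higher was Fxyd5, a regulator of the sodium pump, whose bait was listed at 48h alone.

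Taking at most 1 fragment from each run of neighbours, the 8 fragments with the most baits were followed, which leaves out fragments near the first one such as that of Atp4a described below. Of these 8, 7 had fewer baits at 48h than at 0h. They were chosen by their highest count, which was at 0h or 1h in each, so part of this fall follows from the choice. The intergenic fragment chr8:84270641-84273929 had 23, 8, 4 and 10 baits at 0h, 1h, 12h and 48h. Among its baits was that of Asf1b, a histone chaperone of replicating cells, listed at 0h alone, and Asf1b was lower at 48h. The intergenic fragment chr19:9105482-9108482 had 22, 20, 13 and 15, and 13 of its 22 baits were in all 4 lists, but these lay so close together that they made at most 7 groups 10 kb apart. The fragment chr11:69657060-69662583, which holds a start site of Mpdu1, had 22, 17, 7 and 4. An exonic fragment of Tnnt1, chr7:4502843-4504850, had 21, 20, 8 and 15, and an intergenic fragment of 828 bases, chr10:79984465-79985292, had 20, 17, 11 and 9.

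A fragment in the MHC class III region, chr17:35021923-35024220 in an exon of Vwa7, differed in holding 14, 20, 14 and 14 baits. Its baits fell into at most 5 groups 10 kb apart, and 13 of 20 were in all 4 lists. Among the 20 tested genes at them 5 were higher and 5 lower at 48h (11.1% and 29.8% over all genes at shared fragments). The higher included Lst1, expressed in myeloid cells, and the lower Vars, the valyl-tRNA synthetase, and both baits were listed at 1h alone. The last of these 8 fragments, was chr6:125040297-125041754 in an intron of Ing4, with 18, 20, 10 and 6 baits.

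Of these 8 fragments, 2 held the CTCF-type motif anywhere in their length. In the fragment of chromosome 10 the match was in a masked repeat. In the Mpdu1 fragment there were 3 matches, 2 of them masked.

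**Figure D3:**
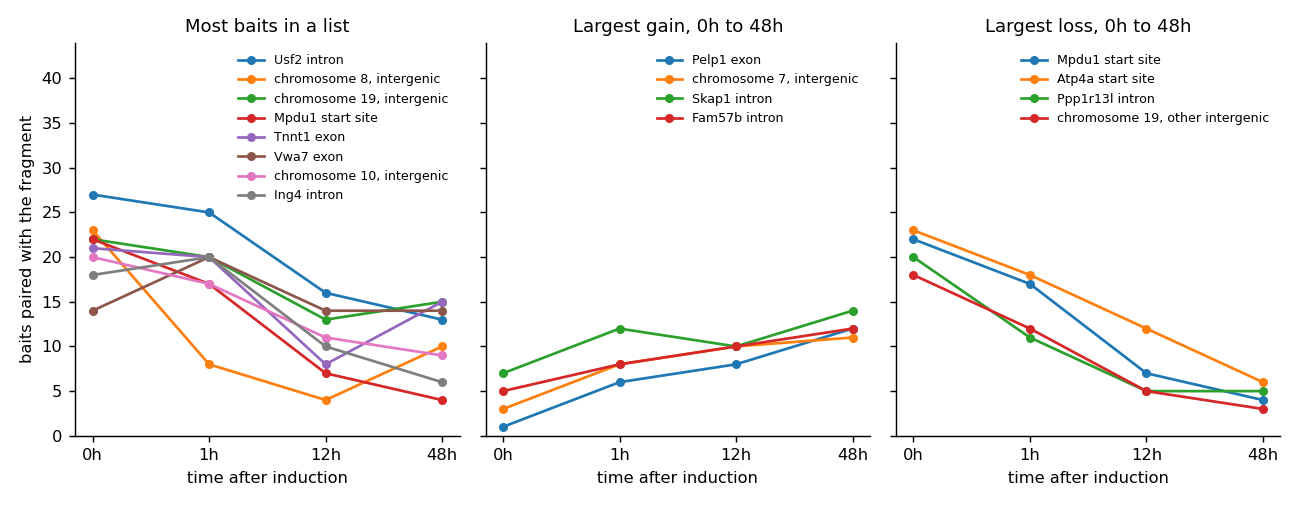
Baits paired with single shared fragments at each time point, 1 line per fragment and no replicates. In each panel at most 1 fragment was taken per run of neighbours. Left, the 8 with the most baits in any list under that limit. Middle and right, the 4 with the largest gain and the 4 with the largest loss from 0h to 48h; the intergenic one of chromosome 7 lies beside the Ifitm genes. The most baited fragment went from 27 to 13.

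Losses were larger and more frequent than gains. From 0h to 48h, 1384 shared fragments with 5 or more baits at 0h lost 3 or more (means over the time course 7.39, 5.80, 3.76 and 2.80 baits). Conversely, 644 with 5 or more at 48h had gained 3 or more (2.32, 3.30, 3.59 and 6.19). Both groups were chosen by their bait counts at 0h and 48h. The fall of the losing and the rise of the gaining means between these lists therefore follow from the choice. The 821 fragments with 5 or more in all lists averaged 8.14, 8.44, 7.12 and 7.14. Start sites were in 23.3% of the losing and 14.1% of the gaining fragments, the medians of baits within 500 kb were 27 and 18, and the CTCF-type motif was in 13.3% and 11.4% of windows.

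With at most 1 fragment per run, the largest losses were those of the Mpdu1 fragment (22 to 4 baits), of a fragment with a start site of Atp4a, chr7:30717648-30722101 (23, 18, 12 and 6), of the intergenic fragment chr19:8799937-8802463 (18, 12, 5 and 3) and of an intronic fragment of Ppp1r13l, chr7:19367603-19368403 (20, 11, 5 and 5). A fragment could lose baits of genes that moved in opposite directions. The Mpdu1 fragment lost its pairs with the baits of both Tmem107, which fell, and Cd68, a macrophage lysosomal protein, which rose. In the 3 libraries each of 0h, 1h, 12h and 48h, Cd68 had 2.83, 2.47 and 1.76, then 2.53, 1.45 and 1.38, then 3.16, 2.45 and 3.20, then 15.2, 18.1 and 21.4 TPM. The 48h libraries were above all others, and the log2 fold change at 48h was 2.91 ± 0.26 (SE, limma adjusted p = 3.88e-06).

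The largest gains included a fragment beside the Ifitm genes, which encode interferon-induced proteins that restrict virus entry. This intergenic fragment, chr7:140909146-140913012, had 3, 8, 10 and 11 baits, and a match to the CTCF-type motif outside repeats is shown above. Ifitm3 and Ifitm1 were listed at 0 TPM in all libraries of 0h and 1h. Ifitm3 had 2.02, 1.18 and 3.13 TPM at 12h and 20.8, 24.6 and 34.5 at 48h. Ifitm1 had 1.14, 1.62 and 1.5 and then 14.3, 15.9 and 17.95. Both rose at 48h (limma adjusted p = 9.83e-09 and 1.41e-09). The bait of Ifitm3 was paired with 1, 5, 9 and 9 shared fragments over the 4 time points and that of Ifitm1 with 1, 2, 9 and 8. This fragment itself was paired with the bait of Ifitm3 at 1h, 12h and 48h and with that of Ifitm1 at 12h alone. Among the 10 tested genes at its baits, 3 were higher and 1 lower at 48h (11.1% and 29.8% over all genes at shared fragments).

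At the other large gains, too, most tested genes were not higher at 48h. The exonic Pelp1 fragment, chr11:70396356-70403200, had 1, 6, 8 and 12 baits. Among the 11 tested genes at its baits 1 was higher (Pld2, a phospholipase) and 5 lower at 48h, including Pelp1 itself. The shares over all genes at shared fragments were 11.1% and 29.8%. An intronic fragment of Skap1, chr11:96529732-96536732, had 7, 12, 10 and 14 baits, which lay around the Hoxb genes and formed at most 3 groups 10 kb apart. Hoxb8, a homeobox factor of progenitor cells, had 22.3, 17.4 and 19.99 TPM at 0h, 3.48, 4.65 and 4.04 at 1h, 1.85, 1.84 and 2.16 at 12h and 2.20, 2.51 and 3.89 at 48h. It fell at 1h and stayed below all 0h libraries (log2 fold change -2.79 ± 0.22 at 48h, limma adjusted p = 1.33e-06), while its bait kept 26, 26, 26 and 25 shared fragments. A fragment in a Fam57b intron, chr7:126815403-126816588, had 5, 8, 10 and 12 baits.

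The baits paired with shared fragments numbered 7636, with a median of 3 and at most 95 shared fragments each. In the GENCODE M21 annotation 10168 genes of the RNA-seq table had a transcription start in one of them. These genes were more highly expressed than those at other baits. Their median was 0.29 TPM at 0h and 38.6% to 40.3% reached 1 TPM in single libraries. For 10987 genes at baits paired only with other non-bait fragments these values were 0.01 TPM and 26.5% to 28.1%. In these bulk libraries, fewer cells of a type and less RNA per cell cannot be told apart. The gap was present at each time point (34.6% and 23.8% by the 48h means). Genes with 1 shared fragment at their bait at 0h had a median of 0.23 TPM, those with 2 to 4 had 0.42, those with 5 to 9 had 0.53 and those with 10 or more had 0.71. At 48h the medians were 0.18, 0.27, 0.32 and 0.32. At 1h they were 0.37, 0.545, 0.955 and 0.68, and at 12h 0.30, 0.59, 0.64 and 0.62. At 1h and 12h the median thus did not rise into the class of 10 or more.

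Of the 10168 genes, 6235 passed the filter of a mean of 0.1 TPM and were tested, within a fit over 16412 genes. Calls required a limma adjusted p below 0.05 with a log2 fold change past 1 in either direction. At 1h, 793 were higher and 86 lower (12.7% and 1.38%). Over all genes tested 16.7% were higher and 1.08% lower, and over the 11816 genes with any bait 14.1% and 1.24%. At 12h, 1007 were higher and 454 lower (16.2% and 7.28%, against 17.7% and 5.76% of all genes). At 48h, 689 were higher and 1858 lower (11.1% and 29.8%). Over all genes at 48h 13.5% were higher and 23.1% lower, and over genes with any bait 11.5% and 28.6% (40.2% in all), so the share called at shared fragments was near that of genes with any bait.

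Median log2 fold changes of these genes against 0h were 0.49, 0.22 and -0.44 in time order, and over all genes tested 0.59, 0.34 and -0.18. Median-of-ratios scaling moved the median of all genes to 0.02, 0.07 and 0.07. On that scale the genes at shared fragments gave 200 higher and 248 lower calls at 1h, 679 and 756 at 12h, and 1017 and 1417 at 48h, so the excess of higher calls at 1h and 12h did not hold. Over all genes the scaled shares were 4.09% and 2.82% at 1h (6.92% in all; 3.18%, 3.47% and 6.65% of genes with any bait), 12% and 9.42% at 12h, and 19.6% and 17.6% at 48h. At 12h they were 10.9% and 12.1% at shared fragments, and 10.7% and 11.6% of genes with any bait. At 48h they were 16.3% and 22.7% at shared fragments, and 17.1% and 21.7% of genes with any bait. The balance at shared fragments was thus near that of genes with any bait.

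Called genes of both directions could lie at the baits of one shared fragment. With a median of 6 tested genes at its baits, 2147 shared fragments (35.5%) had at least 1 higher and 1 lower gene at 48h, 2910 had lower genes only, 551 higher genes only and 443 neither, of which 97 had no tested gene. After scaling, 2611 (43.1%) had both. These shares follow from how many genes a fragment meets as well as from the call rates above, and they were not compared with those of other fragments.

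Genes that gained shared fragments were called higher in larger share than genes that lost them. For each gene the number of shared fragments paired with its bait at 48h was set against that at 0h. Of 116 tested genes that gained 5 or more, 37 (31.9%) were higher and 20 (17.2%) lower at 48h, with a median log2 fold change of 0.17. Of 1322 that gained 1 to 4, 15.4% were higher and 23.8% lower (median -0.18). Of 1870 with no net change, 10.9% and 29.7% were called, of 2337 that lost 1 to 4, 8.99% and 33.1%, and of 590 that lost 5 or more, 5.93% and 33.1% (median -0.58). After scaling the shares were 35.3% and 12.9% in the first class and 10.2% and 25.1% in the last. Across the 6235 genes Spearman's rho between net change and log2 fold change was 0.13, a weak relation among genes that share baits, fragments and clusters. Leaving out chromosome 9, whose Mmp genes gained the most, left 27 of 104 genes higher (26.0%), with a median of 0.04.

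**Figure D4:**
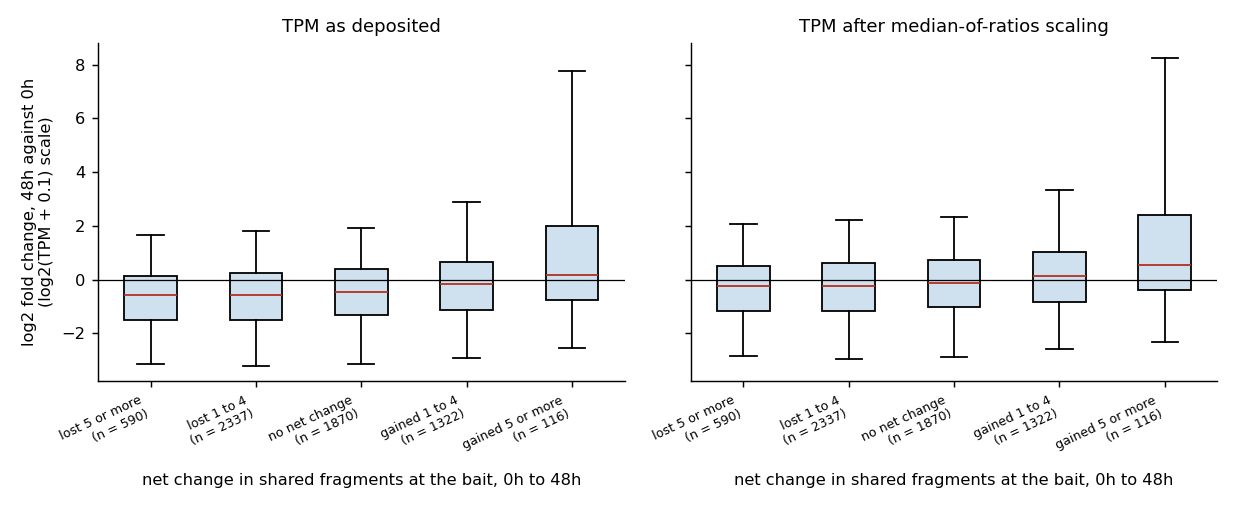
Log2 fold change at 48h against 0h (log2(TPM + 0.1) scale) of genes at baits of shared fragments, by the net change in the number of shared fragments at the bait, for TPM as deposited (left) and after median-of-ratios scaling (right). Boxes are quartiles with the median in red, whiskers the 5th and 95th percentiles, and n the genes tested. The median was -0.58 in genes that lost 5 or more and 0.17 in those that gained 5 or more on the left.

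Among the 37 genes that gained 5 or more shared fragments and were higher were the matrix metalloproteinases Mmp8, Mmp10, Mmp12 and Mmp13, the lectin Clec7a, the integrins Itgam and Itgax, the chemokines Ccl3, Ccl6 and Cxcl10, and the interferon-responsive Ifitm1, Ifitm3, Ifit3, Irf9 and Slfn8. Among the 20 that were lower were Ikzf1, a lymphoid zinc finger factor, and the histone genes Hist2h3b and Hist2h2bb. These genes were named after their values had been seen.

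Shared contacts built up over time at the Mmp locus. Its run of 46 shared fragments, chr9:7180452-7599900, was paired with 14 baits. At 0h, 1h, 12h and 48h, 13, 13, 31 and 39 of the fragments had 5 or more baits, and the run held 128, 167, 233 and 266 pairs. From 0h to 48h 42 fragments gained baits and 1 lost them. Fragments below 5 baits at 0h became members through a later list, so part of this rise follows from the choice. The metalloproteinases at baits of the run cut extracellular matrix, and Mmp12 is the macrophage elastase. The bait of Mmp12 (chr9:7344381-7369499, plus strand) was paired with 10, 11, 30 and 33 shared fragments. Mmp12 had 0, 0 and 0.02 TPM at 0h, 0.07, 0.15 and 0.10 at 1h, 2.72, 2.62 and 2.83 at 12h and 490, 575 and 409 at 48h. Each time point lay above the last with no overlap between libraries, and the log2 fold change at 48h was 12.16 ± 0.21 (SE, limma adjusted p = 2.75e-11).

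Mmp13, the collagenase-3 gene, had 0, 0 and 0.02 TPM at 0h and 100, 110 and 90.2 at 48h (log2 fold change 9.88 ± 0.25, limma adjusted p = 2.23e-10), with 10, 26, 28 and 43 shared fragments. Mmp8, the neutrophil collagenase gene, was listed at 0 in all 3 libraries of 0h. It had 0.31, 0.27 and 0.28 TPM at 1h, 8.08, 5.84 and 6.88 at 12h and 36.2, 43.3 and 28.2 at 48h, rose (limma adjusted p = 2.23e-10), and had 15, 19, 33 and 39 shared fragments. For these 3 genes the number of shared fragments and the mean TPM had the same order of time points. Part of the order of the fragment numbers follows from the choice of fragments. Among the 9 tested genes of the locus, 5 were higher at 48h, with Birc3, an inhibitor of apoptosis, and Mmp10, and none was lower. Over all genes at shared fragments 11.1% were higher and 29.8% lower.

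The fragment with the most baits at Mmp8 and Mmp12, chr9:7594415-7595372, had 5, 9, 11 and 7 baits. It was paired with the baits of Mmp12 and Mmp13 at all 4 time points, also at 0h, when both genes were near 0 TPM. Its pair with Mmp8 was listed from 1h. No central window of a fragment in the run held the CTCF-type motif, and over their whole length 4 of 46 fragments held it, 2 the C/EBP-type, 4 the PU.1-type and 4 the EBF1-type motif.

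At the locus of Cdca3, a cell division gene, shared contacts became fewer. Its run of 70 shared fragments, chr6:124641455-125256988, was paired with 33 baits, and 59, 63, 38 and 23 fragments had 5 or more. The run held 580 pairs at 0h and 256 at 48h, and 67 of 70 fragments lost baits. Fragments below 5 baits at 48h became members through an earlier list, so part of this fall follows from the choice. The bait of Cdca3 was paired with 65, 67, 48 and 29 shared fragments. Cdca3 had 6.33, 7.03 and 6.15 TPM at 0h, 5.80, 9.99 and 7.40 at 1h, 2.98, 2.06 and 4.66 at 12h, and 0, 0.12 and 0 at 48h. All 48h libraries were below the others (log2 fold change -5.66 ± 0.36, limma adjusted p = 2.63e-07). Among 39 tested genes of the locus 3 were higher (Eno2, Pianp and Ptms) and 8 lower, among them Ncapd2, a condensin subunit, and Nop2, a nucleolar methyltransferase. These were 7.69% and 20.5% of the locus, both below the 11.1% and 29.8% of all genes at shared fragments. The Ing4 intron fragment, which lies in this run, was paired with the bait of Cdca3 in all 4 lists.

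**Figure D5:**
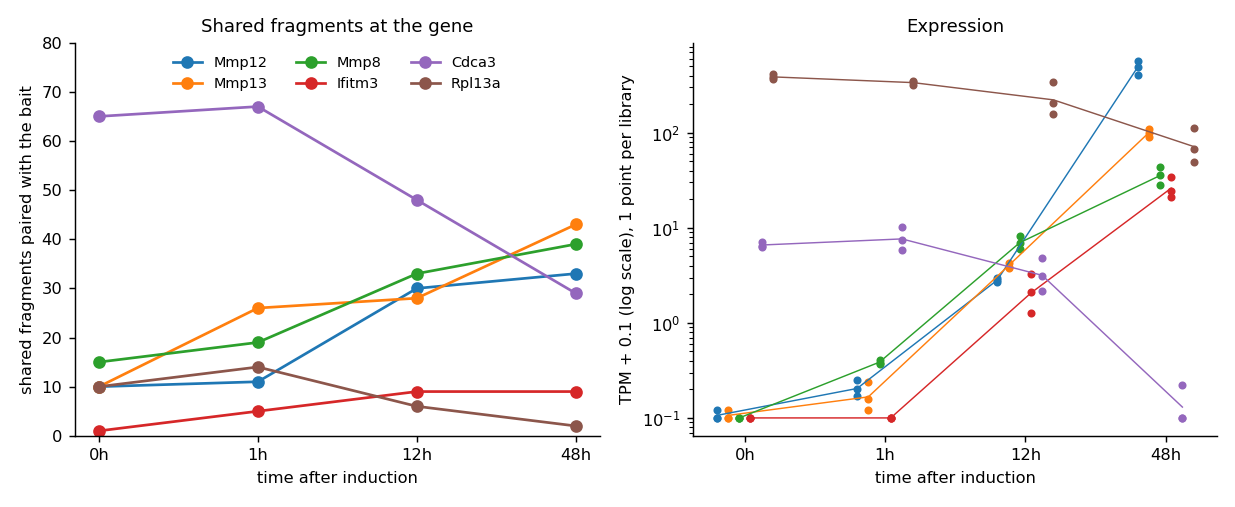
Left, the number of shared fragments paired with the bait of 6 genes at each time point (1 merged list each). Right, TPM + 0.1 on a log scale, 1 point per library (3 per time point), with lines through the means of log values. Mmp12 went from 10 to 33 shared fragments and Cdca3 from 65 to 29.

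At the locus of Eef1g, a translation elongation factor subunit, 49 shared fragments were paired with 29 baits, and 38, 45, 32 and 28 had 5 or more. The run held 386, 455, 299 and 249 pairs, and 38 fragments lost baits from 0h to 48h and 6 gained them. Eef1g had 171, 168 and 152 TPM at 0h and 18.1, 26.6 and 29.5 at 48h (log2 fold change -2.75 ± 0.20, limma adjusted p = 6.67e-07), with 46, 47, 43 and 39 shared fragments. At other genes the number of shared fragments did not follow the TPM. At H19, the imprinted long non-coding RNA gene, the TPM was 346, 321 and 301 at 0h, 347, 339 and 304 at 1h, 2.17, 1.91 and 2.82 at 12h and 0.94, 0.52 and 0.74 at 48h. It fell by 8.63 ± 0.20 on the log2 scale at 48h (limma adjusted p = 2.23e-10), while its bait kept 9, 9, 8 and 9 shared fragments. Ikzf1 fell (29.2 ± 4.11 TPM at 0h and 9.93 ± 1.72 at 48h, SD, n = 3; log2 fold change -1.55, limma adjusted p = 1.8e-05) and its bait had 24, 42, 29 and 37 shared fragments.

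At the Hist2 cluster, which encodes replication-dependent histones, Hist2h3b had 533, 580 and 613 TPM at 0h, 802, 682 and 842 at 1h, 138, 162 and 188 at 12h and 7.90, 9.17 and 21.2 at 48h. It fell by 5.62 ± 0.30 on the log2 scale (limma adjusted p = 7.14e-08), and its bait had 7, 11, 5 and 20 shared fragments. Other baits of the cluster differed, with 27, 23, 15 and 27 shared fragments at Hist2h3c2 and Hist2h2aa2 and 6, 0, 1 and 4 at Hist2h2aa1. The run of 34 shared fragments held 176, 169, 125 and 156 pairs, and of the 74 fragments at all replication-dependent histones 50, 40, 21 and 32 had 5 or more baits. Reads of near-identical histone genes could have been split between copies, so single histone values are uncertain. In the same stretch lies Fcgr1, the high-affinity immunoglobulin receptor of macrophages. Its TPM was 0.06, 0.05 and 0.06 at 0h, 0.23, 0.27 and 0.06 at 1h, 2.89, 2.37 and 3.54 at 12h and 20.5, 18.9 and 26.1 at 48h, and it rose by 7.12 ± 0.31 on the log2 scale (limma adjusted p = 1.45e-08). One intergenic fragment, chr3:96500015-96503313, was paired with the baits of both Fcgr1 and Hist2h3b at all 4 time points and had 14, 14, 13 and 10 baits.

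For the gene lists here and below, calls were counted only for members with a shared fragment at their bait. Members without one were not compared, so these counts describe the lists. Over all genes with a bait 11.5% were higher and 28.6% lower at 48h. By list, 15 of 29 Pre-B lineage genes with a bait had a shared fragment, and 14 of the 15 tested were lower at 48h and 0 higher. The exception was Blnk, an adaptor of the pre-B cell receptor (log2 fold change -0.87). In the 0h and 48h libraries the mean of Cd79a, a chain of the B cell receptor, was 49.5 ± 1.33 and 8.23 ± 2.88 TPM (SD, n = 3). Vpreb3 went from 77.3 ± 2.1 to 0.53 ± 0.14. The most baited shared fragment at Cd79a had 12, 10, 6 and 4 baits, and that at Vpreb2, a surrogate light chain gene, had 5, 3, 0 and 0. Not every such fragment lost baits, as that at Ikzf1 had 7, 3, 3 and 8. Of the 92 shared fragments at these genes, 56, 66, 23 and 32 had 5 or more baits at 0h, 1h, 12h and 48h. Without the 44 at Ikzf1, 34, 29, 16 and 15 of 48 did.

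Of 35 macrophage lineage genes with a bait, 23 had a shared fragment, and all 21 tested were higher at 48h, as also after scaling. Ccl3 and Ccl6, which encode chemokines, went from 1.60 ± 0.91 to 62.1 ± 9.38 TPM and from 0.09 ± 0.08 to 52.4 ± 7.50 (SD, n = 3), and Itgam, the CD11b integrin chain, from 0.05 ± 0.02 to 8.07 ± 1.48. Of 151 shared fragments at these genes, 60, 79, 72 and 102 had 5 or more baits. Without the 46 of the Mmp locus, 47, 66, 41 and 63 of 105 did. The most baited fragment at Ccl2, Ccl7 and Ccl12 had 1, 4, 4 and 5 baits, and that at Ccl3, Ccl4, Ccl6 and Ccl9 had 9, 8, 8 and 8. Such fragments moved both ways, with 16, 13, 9 and 11 baits at Tyrobp and 5, 2, 5 and 7 at Itgam. The only shared fragment at Cebpb, which encodes a C/EBP factor, had 3, 6, 3 and 5.

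Of 58 ribosomal protein genes with a shared fragment at their bait, 53 of 56 tested were lower at 48h and 0 higher (43 lower after scaling). Rpl13a had 386, 413 and 364 TPM at 0h, 349, 322 and 340 at 1h, 158, 203 and 340 at 12h and 48.9, 66.6 and 113 at 48h, and fell by 2.43 ± 0.31 on the log2 scale (limma adjusted p = 6.04e-05). Its bait had 10, 14, 6 and 2 shared fragments. Of 310 shared fragments at these genes, 180, 216, 121 and 118 had 5 or more baits. For the replication-dependent histones 41 of 42 tested were lower, on both scales. Of all genes with a bait 28.6% were lower, and 21.7% after scaling.

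Of genes in 3 further immune lists, 9 of 11 tested MHC genes, 6 of 7 CC chemokines and 10 of 11 Schlafen and Gbp genes were higher at 48h. Of all genes with a bait 11.5% were higher. Slfn5 had 0.15, 0.35 and 0.31 TPM at 0h, 0.28, 0.43 and 0.40 at 1h, 7.88, 8.87 and 9.82 at 12h and 69.3, 80.7 and 60.7 at 48h (log2 fold change 7.61 ± 0.25, limma adjusted p = 1.58e-09). In the run at the Schlafen genes, 6 shared fragments had 18, 11, 17 and 42 pairs. Of them 2, 1, 1 and 6 had 5 or more baits, so part of the rise follows from the choice. Clec7a, the β-glucan receptor, went from 0.80 ± 0.37 to 36.9 ± 3.13 TPM (SD, n = 3), and its bait had 16, 22, 20 and 33 shared fragments.

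The largest changes among called genes of at least 1 TPM were those of Mmp12, Il1rn, Ifi202b, Mmp13, Irf7 and Cd74 upward at 48h. Il1rn encodes the interleukin-1 receptor antagonist, Irf7 an interferon regulatory factor and Cd74 the invariant chain of MHC class II. Il1rn had 0.08, 0 and 0.02 TPM at 0h and 136, 159 and 135 at 48h, and its bait had 1 shared fragment in each list. Downward they were Hist1h2af, Hist1h2ai, Hist1h2ah, H19, Hist2h3c2 and the miRNA-type gene Gm44394. At 12h they were Il1rn, Cd14 and Ccl9 upward and H19, Il7r and Fosb downward, and at 1h Gpr84 and the miRNA-type genes Gm22398 and Gm25195 upward and Gem, Fosb and Id3 downward. Gpr84, a receptor for medium-chain fatty acids, had 0, 0.07 and 0.15 TPM at 0h and 9.94, 10.1 and 8.22 at 1h, with 2, 4, 1 and 3 shared fragments. Fosb, an immediate-early factor, had 11.8, 9.81 and 10.4 TPM at 0h and 0.77, 1.01 and 0.97 at 1h. Values of miRNA-type genes may hold reads of the genes around them.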

How the data were processed

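Promoter capture Hi-C and RNA-seq of C10 cells at 0h, 1h, 12h and 48h were used. The authors mapped capture reads with HiCUP to mm10, called contacts between HindIII fragments with CHiCAGO at a score of at least 5, and merged 2 replicates. In the deposited lists the value is a CHiCAGO score at 0h and a whole number, taken here as a count of read pairs, at the other times. Whether a pair was listed was therefore used, and not its value, and sequencing depth, which the study tabulates, was not used here. TPM had been made by the authors with Trim Galore 0.6.2, HISAT2 2.1.0 and RSEM; read depth was not used here, TPM keeping none, and use of strand in counting was not stated, so overlapping genes cannot be told apart. Genes were assigned to a bait by an annotated start site.

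Genes of a mean of at least 0.1 TPM were tested over all 12 libraries with limma 3.58.1 (R 4.3.3, trend) on log2(TPM + 0.1), with p-values adjusted by Benjamini and Hochberg's method over all genes tested and calls as defined above. Motifs were searched on both strands. Fold changes on this scale understate those of low genes. In simulated data for 48h against 0h (16412 genes), 200 genes of a mean of at least 1 TPM were changed. Of log2 changes of 2, 80% were recovered, and of those of 4, 94%, with 5 unchanged genes called. Recovery of changed genes below 1 TPM was not simulated. Members and gene lists were chosen with earlier results of these data known. Named were, with at most 1 per run, the 8 fragments with the most baits and the 4 with the largest gain and loss, the most baited at lineage genes, the called genes with the largest changes (6 each way at 48h and 3 at 12h and 1h, at a mean of at least 1 TPM, no overlap and both scalings), the 2 most changed at each named fragment, up to 8 per list, and genes the study discusses; 1 gene is not reported here. Python 3.11.15, numpy 2.4.6 and pandas 2.3.3 were used.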

Additional observations from a re-analysis of the deposited data

How the results depend on the processing

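The number of shared fragments followed the threshold. It was 6051 at 5 or more baits, 11237 at 4 or more, 3420 at 6 or more and 555 at 10 or more. It was 3590 with baits within 10 kb counted as 1 (1837, 2000, 977 and 1265 at 0h, 1h, 12h and 48h), 187 in the 0h list alone at a score of at least 10, and 2571 with shared fragments within 10 kb joined.

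Counts of called genes at their baits moved as follows, given as the total, then higher and lower. At 1h the 879 calls (793 and 86) became 448 (200 and 248) with median-of-ratios scaling, 403 (238 and 165) when rescaled without the 20 most abundant genes, 370 (328 and 42) with a pseudocount of 1, 168 (144 and 24) beyond a log2 fold change of 2, and 1477 (1365 higher) with no fold threshold. At 12h the 1461 calls (1007 and 454) became 857 (583 and 274) with a pseudocount of 1 and 486 (344 and 142) beyond 2, and lower calls became 756 with median-of-ratios scaling. At 48h the 2547 calls (689 and 1858) became 1615 (410 and 1205) and 1132 (330 and 802). Restricted to fragments with 10 or more baits they were 204 (174 and 30) at 1h, 425 (280 and 145) at 12h and 732 (183 and 549) at 48h, a smaller set of genes. Other causes were not tested.

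Leaving out each library in turn gave 643 to 952 calls (568 to 870 higher, 67 to 96 lower) at 1h, 1303 to 1470 (811 to 1045, 358 to 514) at 12h and 2375 to 2629 (624 to 711, 1671 to 2005) at 48h. With the replicate number as a block there were 891, 1454 and 2562 calls. Of 18 correlations between same-numbered libraries 7 were over 0.1 (range -0.0123 to 0.257). Between libraries numbered 3 they were 0.257, 0.255, 0.214, 0.193, 0.103 and 0.0698. The main fit took no account of the numbers, and the counts with them as a block are given above. Of 4614 alternatives for 221 named-gene calls, 4418 kept direction and side of the threshold, 196 were no longer past it and 0 reversed. Contacts had no replicates, so gains and losses of baits carry no error.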

Other observations

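Gene families outside the lineage programmes differed in how many members had a shared fragment at their bait. Over all genes with a bait 43.8% (10168 of 23193) had one. Of 51 keratin genes with a bait, 47 had a shared fragment although 1 was tested for expression, and of their 42 shared fragments 10, 29, 30 and 15 had 5 or more baits at 0h, 1h, 12h and 48h. Of 40 Hox genes with a bait 33 had one, and 32, 29, 28 and 29 of 52 fragments had 5 or more baits. Of the 6 Hox genes tested 1, Hoxb8, was lower at 48h and 0 were higher. Olfactory receptor genes, which encode odorant receptors of sensory neurons, had 217 shared fragments, of which 128, 108, 83 and 136 had 5 or more baits, at 206 of 697 genes with a bait (29.6%, below the share of all genes). Reads of such similar genes could have been split between copies. Zinc finger genes named Zfp had 523, at 143 of 286 genes with a bait, of which 295, 348, 210 and 201 had 5 or more, and 6 of 122 tested were higher and 22 lower at 48h (9 and 13 after scaling). Of all genes with a bait 11.5% were higher and 28.6% lower at 48h (17.1% and 21.7% after scaling). Over all shared fragments the counts were 3306, 3485, 2150 and 2597 of 6051.

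C-type lectins, pattern receptors of myeloid cells, had 66 shared fragments, of which 35, 43, 22 and 47 had 5 or more baits, and 6 of 8 tested were higher at 48h. Of all genes with a bait 11.5% were higher. One intergenic fragment at the bait of Clec4d, chr6:122653048-122655755, had 0, 0, 1 and 6 baits. Genes at or near 0 TPM in these libraries also had shared fragments. Cd4 and Cd3e, of T cells, had 31 shared fragments between them, of which 26, 28, 20 and 14 had 5 or more baits. Of the 31, 30 lay at Cd4 in 1 run of chromosome 6, that of Cdca3, and the other reached 5 baits at 0h, 1h and 48h. Elane and Mpo, of granulocytes, had 22, of which 17, 17, 11 and 4 did (4, 0, 0 and 0 of 4 without the 18 of 1 run on chromosome 10). The fibroblast and erythroid markers had none.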
